A study of Mus musculus with 9 samples.

Results

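The 7 genes described here are osteoblast genes other than the Runx factors and the collagens: Sp7, Alpl, Phex, Ibsp, Spp1, Sparc and Pth1r. They were found by symbol among the 54532 genes of the deposited table, and all 7 had reads. The reads came from lambdoidal junction tissue, where the maxillary prominence of the face meets the lateral and medial nasal prominences, of C57BL/6J mouse embryos taken on embryonic day 10.5 (E10.5) and on the next 2 days (E11.5, then E12.5). There were 3 libraries per stage, each made from RNA of pooled embryos per the study's methods, with no treatment or mutation in any group, so that stage was the only factor. Totals per library were 16581009 to 20836804 counts.

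Osteoblasts form bone in successive steps. Mesenchymal cells, in the face mostly derived from the neural crest, first take on an osteoprogenitor fate under Runx2 and then Sp7, next secrete a collagen matrix and express alkaline phosphatase, and lastly deposit mineral together with acidic matrix proteins such as bone sialoprotein and osteopontin. The skeleton of the upper jaw forms largely by this direct route, without a cartilage model, and Pth1r, the receptor for parathyroid hormone and its related protein, is a regulator of both osteoblasts and growth cartilage.

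Levels are given as counts and as CPM (counts scaled to the size of the library) with TMM scaling, and levels of different genes are compared only as CPM per kilobase of gene length. A gene was called when the Benjamini-Hochberg adjusted p-value of edgeR's quasi-likelihood test was at most 0.05 and the absolute log2 fold change at least 1, the limits that the study set for its DEGs. The stages were compared as E11.5 against E10.5 (the first step), E12.5 against E11.5 (the second step) and E12.5 against E10.5 (the whole span). A positive log2 fold change means a higher level at the later of the stages, SE is its standard error, and p-values are adjusted over all genes tested. The smallest two-sided p that an exact permutation of 3 libraries against 3 can give is 0.1, so no single gene can pass 0.05 by permutation alone. In bulk tissue, fewer cells of a type and less RNA per cell cannot be told apart.

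Among the libraries, E10.5 replicate 3 stood apart. Over genes, the SD of its log2 difference from replicates 1 and 2 was 0.711 and 0.703, against 0.373 to 0.591 for the other pairs within a stage, and this difference varied with GC content (Spearman's rho 0.524 and 0.537 across genes, which are not independent replicates). In that library the summed level of 8 endothelial markers was 126 CPM, against 340 and 354 CPM in the other E10.5 libraries, and that of 7 facial mesenchyme markers 1013 CPM, against 1733 and 1744 CPM. The 6 erythroid markers were also low in it, at 243 CPM against 565 and 421 CPM, whereas the 7 epithelial markers were high, at 697 CPM against 385 and 437 CPM. Results that rest on it are also given without it.

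The 3 genes below mark the contrast among the 7, with Alpl upregulated by E12.5 and the mineral-binding genes Ibsp and Spp1, near each other on chromosome 5, at trace levels. The 250 bases before their start sites, from RefSeq on GRCm38.p6, are shown 5′ to 3′ on the strand of the gene, with the letters TGTGGT, the core that Runx factors bind, and those of a TATA box, TATAAA, in capitals, along with their reverse complements. Alpl has 2 such start sites in RefSeq, of which the upstream one is shown, at chr4:137796385-137796634 on the minus strand. The bases of Ibsp lie at chr5:104299037-104299286 and those of Spp1 at chr5:104434861-104435110, both on the plus strand.
Alpl: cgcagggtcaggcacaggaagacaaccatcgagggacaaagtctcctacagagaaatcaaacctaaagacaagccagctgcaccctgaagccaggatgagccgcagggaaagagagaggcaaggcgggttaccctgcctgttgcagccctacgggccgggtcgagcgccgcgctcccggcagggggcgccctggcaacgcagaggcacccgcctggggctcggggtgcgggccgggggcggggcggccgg
Ibsp: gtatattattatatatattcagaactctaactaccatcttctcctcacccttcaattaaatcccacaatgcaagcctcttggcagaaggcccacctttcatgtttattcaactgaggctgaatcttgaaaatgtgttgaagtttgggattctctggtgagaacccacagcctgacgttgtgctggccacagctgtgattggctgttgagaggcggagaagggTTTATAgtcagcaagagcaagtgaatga
Spp1: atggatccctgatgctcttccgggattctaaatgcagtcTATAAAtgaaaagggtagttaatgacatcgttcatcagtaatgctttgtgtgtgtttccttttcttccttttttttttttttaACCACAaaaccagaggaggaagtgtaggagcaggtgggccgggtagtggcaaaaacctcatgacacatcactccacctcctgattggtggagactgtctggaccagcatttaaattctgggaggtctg
The sequence before Spp1 holds ACCACA at positions -128 to -123, counted back from the start of the transcript, as well as TATAAA at -211 to -206. Ibsp has TTTATA at -28 to -23, close to its start, and Alpl has neither set of letters in the stretch shown. Among 32851 RefSeq stretches of the same length, 14% held the Runx letters and 12.4% the TATA letters on either strand. RefSeq start sites were found for 6 of the 7 genes, 10 in all, and of these the Spp1 site shown was the only one with the Runx letters. The downstream Alpl site had TTTATA at -192 to -187, and those of Phex, Sparc and Pth1r held neither. Sp7 had no entry.

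Sp7 (ENSMUSG00000060284, chr15:102356606-102367182 in mm10, minus strand) encodes osterix, the zinc-finger factor that commits progenitors to the osteoblast fate. Its counts were 41, 25 and 18 in the E10.5 libraries, 157, 112 and 149 at E11.5, and 516, 538 and 468 at E12.5. In CPM these were 2.44, 1.45 and 1.11, then 8.45, 5.39 and 7.85, then 29.1, 29.0 and 27.9. Each library of a later stage thus lay above each library of an earlier one. The gap between stages ran from 2.44 to 5.39 CPM at the first step and from 8.45 to 27.9 CPM at the second. Sp7 was upregulated in the first step by 4.32-fold (log2 fold change 2.11, SE 0.33, edgeR quasi-likelihood test, Benjamini-Hochberg adjusted p = 0.00681) and in the second step by 3.96-fold (log2 fold change 1.98, SE 0.18, adjusted p = 1.05e-04). Over the whole span the increase was 17.2-fold (log2 fold change 4.10, SE 0.29, adjusted p = 5.31e-06). The difference between its 1-day steps was -0.12 on the log2 scale with a 95% interval of -1.03 to 0.79 (adjusted p = 0.94), and it kept its call in all 3 comparisons whichever library was left out.

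**Figure D1:**
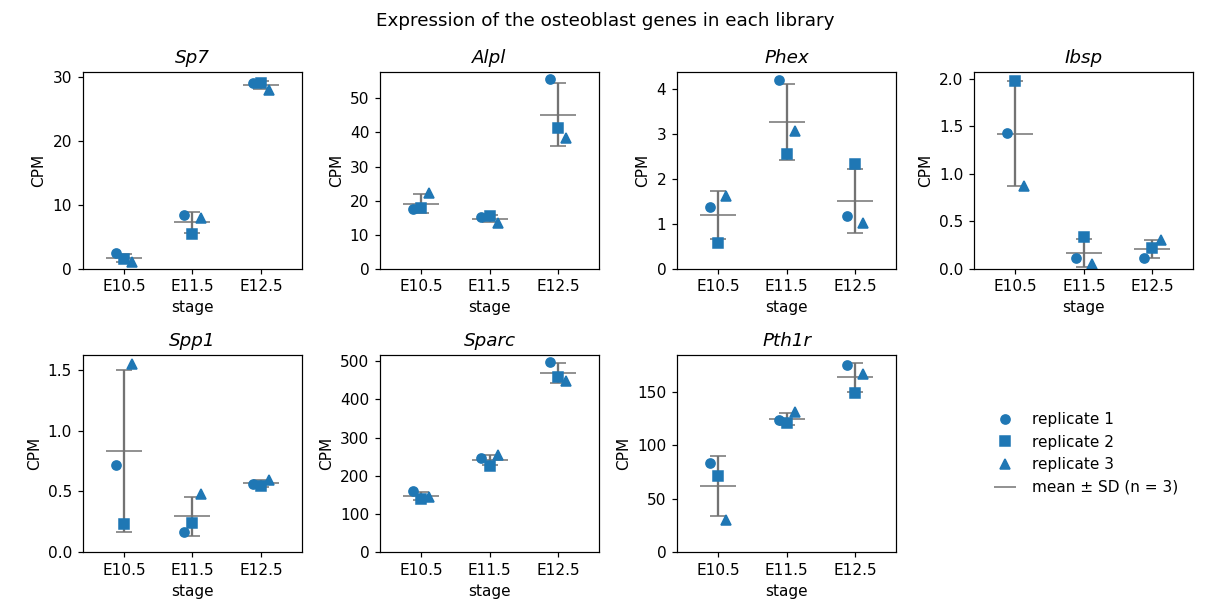
CPM of the 7 genes (vertical axes, each starting at 0) in the 9 libraries by stage, with a marker shape per replicate number and bars for the mean and SD of 3 libraries. Sp7 and Sparc were higher with each stage without overlap, Alpl was highest at E12.5, Phex at E11.5, and Ibsp was highest at E10.5 with at most 1.97 CPM.

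Among the enzymes, Alpl (ENSMUSG00000028766, chr4:137741733-137796384, minus strand) encodes tissue-nonspecific alkaline phosphatase, which breaks down pyrophosphate, an inhibitor of mineral growth. Its counts were 293, 305 and 359 at E10.5, 280, 320 and 256 at E11.5, and 989, 767 and 646 at E12.5. Per gene length, Alpl at E10.5 was already at 4.32 or more CPM per kilobase in each library, when Sp7 had at most 0.717. Its level went from 19.1 ± 2.70 CPM (SD, n = 3) to 14.6 ± 1.02 and then 45.2 ± 9.23 CPM. All E11.5 libraries lay below all E10.5 libraries in CPM, but the log2 fold change of -0.38 (SE 0.15) was not called (edgeR quasi-likelihood test, Benjamini-Hochberg adjusted p = 0.146). In the second step Alpl was upregulated by 3.07-fold (log2 fold change 1.62, SE 0.16, adjusted p = 2.16e-04), and in the whole span by 2.38-fold (log2 fold change 1.25, SE 0.21, adjusted p = 0.0016).

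Alpl was also the 1 gene of the 7 whose steps differed by the test of the difference itself, run on all 9 libraries, in which 1.18% of 16375 genes were called. Its second step exceeded the first by 2.01 on the log2 scale (95% interval 1.32 to 2.70, edgeR quasi-likelihood test, Benjamini-Hochberg adjusted p = 0.0119). That call was lost when any E11.5 library was left out, with a difference of 2.06, 2.09 and 1.91 and an adjusted p of 0.0935, 0.0576 and 0.124 without replicate 1, 2 and 3. In those fits 31, 59 and 27 of all genes were called, against 194 with all libraries.

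Around Alpl, 9 genes of phosphate and pyrophosphate handling were looked up, of which 5 were tested. The other alkaline phosphatase genes, Alpi, Akp3 and Alppl2, had at most 3 counts in every library, so that Alpl was the 1 gene of its family above that limit. Enpp1, which makes the pyrophosphate that Alpl degrades, was at 3.61 ± 0.931, 2.29 ± 0.486 and 5.79 ± 1.43 CPM (SD, n = 3) and was upregulated in the second step (log2 fold change 1.33, SE 0.26, edgeR quasi-likelihood test, Benjamini-Hochberg adjusted p = 0.00841). Smpd3, a sphingomyelinase of skeletal matrix cells, was downregulated in the first step (log2 fold change -1.53, SE 0.26, adjusted p = 0.0101). Over the whole span the median log2 fold change of the 5 was -0.66, against -0.01 for all genes tested. Slc20a1 and Slc20a2, which encode phosphate transporters, and Smpd3 had log2 fold changes of -0.67, -0.66 and -0.95 there, with adjusted p-values of 0.0122, 0.0283 and 0.0348 and a change below the fold-change limit. Since Alpl is also known from germ cells and pluripotent cells, 5 of their markers were examined. Pou5f1 and Dppa3 had at most 3 counts in every library and the summed level of the 5 was 0.522 to 1.86 CPM at E10.5, then 0.632 to 1.08 and 1.46 to 1.79 CPM. Ddx4 had 6 to 15, 7 to 19 and 6 to 17 counts per library at the successive stages. Nanog had 1 to 8, 0 to 5 and 3 to 17, and Dazl 2 to 7, 1 to 2 and 2 to 8. Ddx4 was tested in the second step and the whole span and was not called. The part of such cells in the level of Alpl was not tested.

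Phex (ENSMUSG00000057457, chrX:157162075-157415312, minus strand) encodes a membrane endopeptidase of osteoblasts and osteocytes that is best known for its role in phosphate balance. Its counts were 23, 10 and 26 at E10.5, 78, 53 and 58 at E11.5, and 21, 43 and 17 at E12.5. The E11.5 libraries lay above those of both neighbouring stages, at 2.55 to 4.20 CPM against 0.581 to 1.61 and 1.01 to 2.32 CPM. Phex was upregulated in the first step (log2 fold change 1.46, SE 0.39, edgeR quasi-likelihood test, Benjamini-Hochberg adjusted p = 0.049). This call held without E10.5 replicate 3 (adjusted p = 0.00342) and was lost when any other library of the comparison was left out, with a log2 fold change of 1.58 and 1.13 without E10.5 replicate 1 and 2, and 1.25, 1.62 and 1.51 without E11.5 replicate 1, 2 and 3 (adjusted p = 0.0848, 0.103, 0.193, 0.0916 and 0.147). The lower level in the second step was not called (log2 fold change -1.11, SE 0.35, adjusted p = 0.0624). It was called without E12.5 replicate 2 (log2 fold change -1.57, adjusted p = 0.00643). Over the whole span Phex did not pass the test, with a log2 fold change of 0.36 and a 95% interval of -0.70 to 1.42 (adjusted p = 0.631), and its libraries overlapped. The second step minus the first was -2.57 on the log2 scale (95% interval -4.04 to -1.09, adjusted p = 0.102), which was not called, and was -2.89 without E10.5 replicate 3 and -3.01 without E12.5 replicate 2, which were (adjusted p = 0.0439 and 0.05).

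In the M13 peptidase family, 6 relatives of Phex were looked up. Of these, 3 were tested in the first step and the whole span, and 4 in the second step. Over all genes tested, 3.46%, 4.14% and 9.97% were called up in the first step, the second step and the whole span. Among the relatives that were tested, Mme, which encodes neprilysin, was the only one called. Its level was 71.5 ± 17.7, 145 ± 24.1 and 156 ± 21 CPM at the successive stages (SD, n = 3), and was upregulated in the first step (log2 fold change 1.02, SE 0.20, edgeR quasi-likelihood test, Benjamini-Hochberg adjusted p = 0.0151) and in the whole span (log2 fold change 1.13, SE 0.21, adjusted p = 0.00295). In the second step its log2 fold change was 0.10 (adjusted p = 0.682).

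The matrix genes divided into abundant Sparc and scarce Ibsp and Spp1. Sparc (ENSMUSG00000018593, chr11:55394500-55423183, minus strand) encodes osteonectin, a collagen- and calcium-binding protein that many mesenchymal, endothelial and basement membrane-forming cells secrete besides osteoblasts. Its counts were 2689, 2380 and 2323 at E10.5, 4566, 4687 and 4805 at E11.5, and 8844, 8535 and 7516 at E12.5, or 147 ± 11.2, 241 ± 14.3 and 469 ± 26.2 CPM (SD, n = 3). The stages did not overlap at either step. Each step had an adjusted p-value below the limit and a fold change below it, with a log2 fold change of 0.72 (SE 0.10, edgeR quasi-likelihood test, Benjamini-Hochberg adjusted p = 0.00559) and then 0.95 (SE 0.12, adjusted p = 6.22e-04). Over the whole span Sparc was upregulated by 3.20-fold (log2 fold change 1.68, SE 0.17, adjusted p = 5.60e-05).

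Ibsp (ENSMUSG00000029306, chr5:104299171-104311469, plus strand) encodes bone sialoprotein, an acidic protein of mineralizing matrix, and went the opposite way. Its counts were 24, 34 and 14 at E10.5, 2, 7 and 1 at E11.5, and 2, 4 and 5 at E12.5. All later libraries lay below all E10.5 libraries, and even the highest of the 9, at 0.954 CPM per kilobase, was below every Alpl library. Ibsp was downregulated by 8.08-fold in the first step (log2 fold change -3.01, SE 0.61, edgeR quasi-likelihood test, Benjamini-Hochberg adjusted p = 0.0184) and by 6.62-fold in the whole span (log2 fold change -2.73, SE 0.54, adjusted p = 0.00448). The first of these calls was lost without E10.5 replicate 2 (log2 fold change -2.71, adjusted p = 0.0656), E11.5 replicate 1 (-2.79, 0.106) or E11.5 replicate 3 (-2.61, 0.0881). In the second step the counts of Ibsp were too low for the filter, and it was not tested. It thus passed the filter in the other comparisons only through its E10.5 counts, the stage at which it was highest. The later counts, 1 to 7 per library, lay near the limit of detection of 3 counts. The fold sizes are therefore imprecise, and both calls depend on that filter.

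Spp1 (ENSMUSG00000029304, chr5:104435118-104441050, plus strand) encodes osteopontin, a phosphoprotein of bone that macrophages, among other cells, also make. Its counts were 12, 4 and 25 at E10.5, 3, 5 and 9 at E11.5, and 10 in each E12.5 library, so that its highest value, 1.55 CPM, fell in E10.5 replicate 3. The E10.5 libraries overlapped both later stages. Spp1 was left out of the first step by that filter, had a log2 fold change of 0.94 in the second step (95% interval -0.18 to 2.05, edgeR quasi-likelihood test, Benjamini-Hochberg adjusted p = 0.241) and one of -0.53 in the whole span (95% interval -1.86 to 0.80, adjusted p = 0.565). The last value was 0.27 (adjusted p = 0.767) without E10.5 replicate 3. Of the exonic bases of Spp1, 18.8% are shared with Gm42793 on the same strand. How reads in these shared bases were counted is not given in the sources used here.

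The nearest relatives of Ibsp and Spp1 by family, the SIBLING genes Dspp, Dmp1 and Mepe of dentin, osteocytes and bone matrix, had at most 3 counts in every library. Of 12 late osteoblast and osteocyte genes only Omd and Tnfrsf11b were tested, and Bglap2, one of the osteocalcin genes, had at most 3 counts in every library. Omd, which encodes the mineral-binding keratan sulfate protein osteomodulin, had 0 to 3 counts per library at E10.5, then 9 to 13 and lastly 50 to 69. It was upregulated in the second step (log2 fold change 2.54, SE 0.32, edgeR quasi-likelihood test, Benjamini-Hochberg adjusted p = 6.86e-04) and in the whole span (4.98, SE 0.59, adjusted p = 1.60e-04). The latter size rests on the few E10.5 counts. Of all genes tested, 4.14% and 9.97% were called up in these comparisons. Tnfrsf11b, which encodes osteoprotegerin, the decoy that blocks osteoclast formation, was at 0.912 ± 0.201, 2.06 ± 0.406 and 2.40 ± 0.437 CPM (SD, n = 3) and was upregulated in the whole span (log2 fold change 1.40, SE 0.37, adjusted p = 0.0182). Without E10.5 replicate 3 it was also called up in the first step, and Tnfsf11 over the whole span.

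Macrophage markers, which bear on Spp1, were present at each stage: 11 of 11 were tested, and their summed level was 27.7 to 41.6 CPM at E10.5, then 36.6 to 41.5 and 48.4 to 55.3 CPM. Of these C1qa and Mrc1 were upregulated over the whole span (log2 fold change 1.67 and 1.30, edgeR quasi-likelihood test, Benjamini-Hochberg adjusted p = 0.0271 and 0.0039). The others were not called there, with log2 fold changes of -0.39 to 0.91. Of all genes tested, 9.97% were called up over the whole span. The median of the 11 was 0.55, against -0.01 over all genes. Of 6 osteoclast markers Dcstamp and Atp6v0d2 had at most 3 counts in every library, and the summed level was 7.99 to 15.8, 18.9 to 24.2 and 14.9 to 20.9 CPM. The 2 that were tested were called in opposite directions, Ctsk up in the first step (log2 fold change 1.68, adjusted p = 0.0168) and over the whole span (1.96, adjusted p = 0.00222), and Acp5 down in the second step (-1.24, adjusted p = 0.00217), and without E10.5 replicate 3 Acp5 was also called down over the whole span. Of 4 tooth matrix markers Dspp, Amelx and Enam were likewise at 3 counts or fewer, whereas Ambn went from at most 1 count to 14 to 34 and then 13 to 22. The part of these cells in the levels of Spp1 was not tested.

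Among the SPARC family relatives of Sparc, 7 of 7 genes were tested. Upregulated were 4 in the first step (Spock3, Spock1, Smoc2 and Sparcl1), 3 in the second step (Sparcl1, Spock1 and Smoc2) and 5 in the whole span (Smoc2, Spock1, Sparcl1, Spock3 and Fstl1). Of all genes tested, 3.46%, 4.14% and 9.97% were called up in these comparisons. The median over the 7 was 1.13, 0.70 and 2.33 on the log2 scale, against -0.03, 0.02 and -0.01 over all genes. The first call of Sparcl1 was lost without E10.5 replicate 3. Smoc2, a secreted calcium-binding protein, went from 2.44 ± 1.65 to 23.5 ± 10.3 and 65.1 ± 1.53 CPM (SD, n = 3). Fstl1, the relative with the most counts, went from 260 ± 26.6 to 512 ± 31.1 and 836 ± 77.1 CPM. Of 9 osteopontin receptor genes, all tested, Itga8 was upregulated in the first step (log2 fold change 1.24, SE 0.17, edgeR quasi-likelihood test, Benjamini-Hochberg adjusted p = 0.00466), Cd44 in the second step (log2 fold change 1.46, SE 0.16, adjusted p = 2.96e-04), and both in the whole span, in which the call of Itga8 was lost without E10.5 replicate 3. The median log2 fold change of the 9 was 0.48, -0.06 and 0.44.

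Pth1r (ENSMUSG00000032492, chr9:110722085-110747145, minus strand), the receptor of the group, was next to Sparc in level per gene length. Its counts were 1406, 1232 and 490 at E10.5, 2307, 2512 and 2495 at E11.5, and 3120, 2770 and 2797 at E12.5. The low value of 490 counts, or 30.3 CPM against 83.6 and 71.5 CPM, was that of E10.5 replicate 3, which was also low in endothelial and mesenchyme markers and high in epithelial markers, and their part in it was not tested. The later libraries all lay above the earlier ones at each step. In the first step the log2 fold change was 1.03 (SE 0.31) and was not called (edgeR quasi-likelihood test, Benjamini-Hochberg adjusted p = 0.073). Without E10.5 replicate 3 it was 0.70 (adjusted p = 2.92e-05), again below the fold-change limit, and with the GC trend of each library removed it was called (1.15, adjusted p = 0.00455). In the second step it was 0.38 (SE 0.12, adjusted p = 0.0563). Pth1r was upregulated in the whole span, by 2.67-fold (log2 fold change 1.42, SE 0.31, adjusted p = 0.00694), and by a log2 fold change of 1.09 without E10.5 replicate 3 (adjusted p = 9.44e-04). Myl3, on the other strand, overlaps 3.25% of its exonic bases.

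Of 15 genes of parathyroid hormone signaling around Pth1r, 12 were tested and 1, Pthlh, was called, up in each comparison. Of all genes tested, 3.46%, 4.14% and 9.97% were called up in the first step, the second step and the whole span. Pthlh encodes the parathyroid hormone-related protein, a local ligand of Pth1r, and had 4 to 8 counts per library at E10.5, then 27 to 73 and lastly 219 to 263. It was at 0.361 ± 0.132, 2.99 ± 1.46 and 13.5 ± 1.54 CPM (SD, n = 3). The ligand rose by a log2 fold change of 3.03 (SE 0.54, edgeR quasi-likelihood test, Benjamini-Hochberg adjusted p = 0.0115) and then 2.18 (SE 0.32, adjusted p = 0.00165). Pth, Pth2 and Pth2r, the other ligand and receptor genes of the list, not all of which act through Pth1r, had at most 3 counts in every library. Of the intracellular partners, Gnas, which encodes the G protein subunit coupled to the receptor, was at 91.6 ± 24.4, 108 ± 6.61 and 108 ± 32.9 CPM, with adjusted p-values of 0.428, 0.984 and 0.525 in the first step, the second step and the whole span. The median log2 fold change of the 12 was 0.23, -0.08 and 0.14, against -0.03, 0.02 and -0.01 over all genes.

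**Figure D2:**
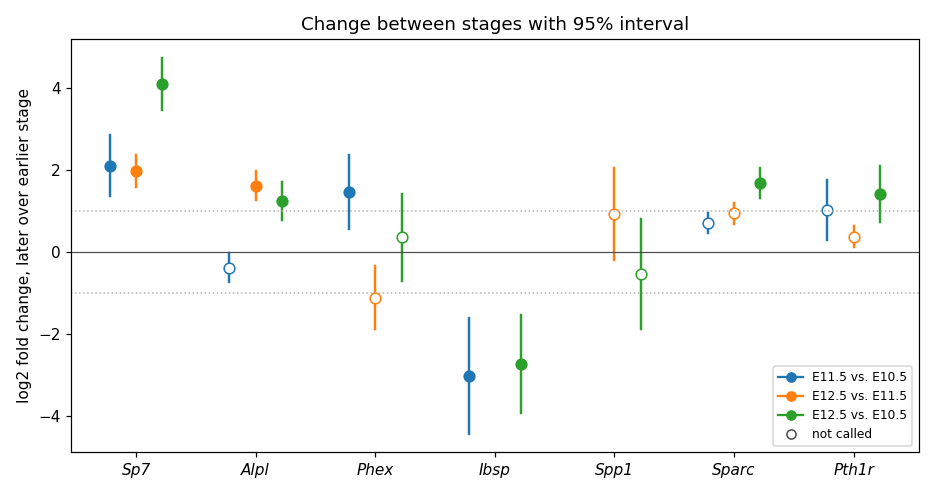
Log2 fold change, positive where the later stage is higher (vertical axis), of each gene in the 3 comparisons, with the 95% interval as a line. Filled circles were called, open circles were not, dotted lines mark the fold-change limit, and a missing circle is a gene that was not tested. Sp7 lies above 1 in all 3 comparisons and Ibsp below -1 in both that tested it.

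Counted over the group, 2 of the 6 genes tested in the first step were called up (Sp7 and Phex) and 1 down (Ibsp), where 3.46% of all 15708 genes tested were called up and 2.61% down. In the second step, 2 of 6 were called up (Sp7 and Alpl) and 0 down (1, Phex, at an unadjusted p below 0.05 and by DESeq2), where the shares of all genes were 4.14% and 0.962%. In the whole span, 4 of 7 were called up (Sp7, Sparc, Pth1r and Alpl) and 1 down (Ibsp), where 9.97% and 5.08% of 15899 genes were. The median log2 fold change of the genes tested was 0.87, 0.94 and 1.25, against -0.03, 0.02 and -0.01 for all genes. The comparisons share libraries. The 7 genes were taken up for their known role with results of these data in view, so these counts describe them and are no test of the set. Without E10.5 replicate 3 the count was 3 in the first step and 5 in the whole span, as with it.

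**Figure D3:**
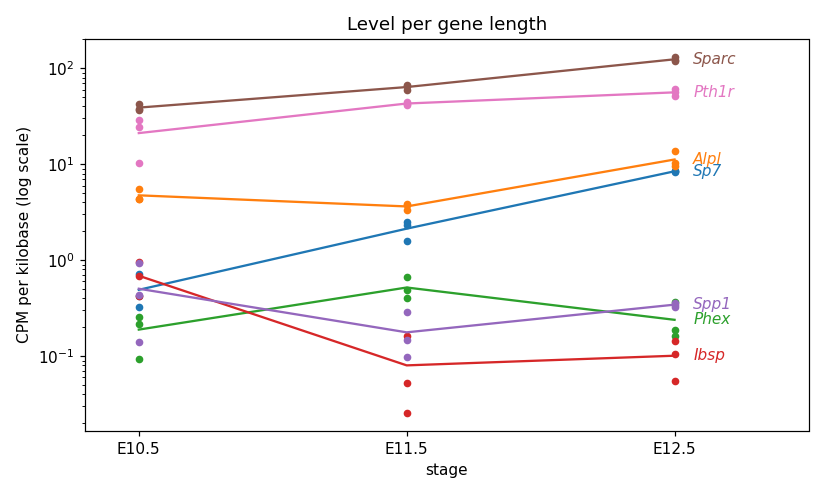
CPM per kilobase of gene length (log axis) of the 7 genes by stage, with a point per library and lines through the stage means. Sparc and Pth1r were the highest at each stage. Sp7 moved from the low group to a level near that of Alpl, and Phex, Ibsp and Spp1 stayed under 1.

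Per gene length, Sparc was the highest of the 7 at each stage, at 38.9 ± 2.96, 63.7 ± 3.79 and 124 ± 6.91 CPM per kilobase (SD, n = 3), followed by Pth1r at 21.1 ± 9.54, 42.9 ± 1.86 and 56.1 ± 4.60 and Alpl at 4.74 ± 0.670, 3.63 ± 0.253 and 11.2 ± 2.29. These 3 did not overlap in any stage. At E10.5 they were followed by Ibsp (0.688 ± 0.268), Spp1 (0.504 ± 0.404) and Sp7 (0.491 ± 0.202), whose libraries overlapped, and by Phex (0.189 ± 0.0856). By E11.5 Sp7 had moved to the fourth place, at 2.13 ± 0.478, above Phex (0.519 ± 0.134), and Spp1 (0.177 ± 0.0987) and Ibsp (0.0801 ± 0.0728) overlapped at the end of the order. At E12.5 Sp7 was at 8.44 ± 0.193, just under Alpl, and Spp1 (0.344 ± 0.0174) overlapped Phex (0.239 ± 0.113), with Ibsp the lowest (0.101 ± 0.0449).

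The regulators that act before or beside Sp7 were described as a list of 11, all tested. In the first step, 2 were called up and 1 down, with a median log2 fold change of 0.31, and in both the second step and the whole span, 3 were called up and 1 down, with medians of 0.30 and 0.82. Over all genes the shares called up were 3.46%, 4.14% and 9.97%, those called down 2.61%, 0.962% and 5.08%, and the medians -0.03, 0.02 and -0.01. Runx2, the factor above Sp7 in the osteoblast pathway, had 21 to 119 counts per library, then 860 to 1427 and lastly 1504 to 2031. Its log2 fold change was 3.75 (SE 0.49, edgeR quasi-likelihood test, Benjamini-Hochberg adjusted p = 0.00372) in the first step and 0.73 (SE 0.19, adjusted p = 0.0346), below the fold-change limit, in the second. Twist2, Fosl2 and Cebpb were called up in the second step (log2 fold changes of 1.71, 1.37 and 1.71), and Twist2 encodes a factor known to hold osteoblast maturation back. Zbtb16 was the regulator called down, from 18.9 ± 2.36 to 3.40 ± 0.745 and 0.764 ± 0.281 CPM (SD, n = 3). Without E10.5 replicate 3, Cebpb was also called down in the first step.

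**Figure D4:**
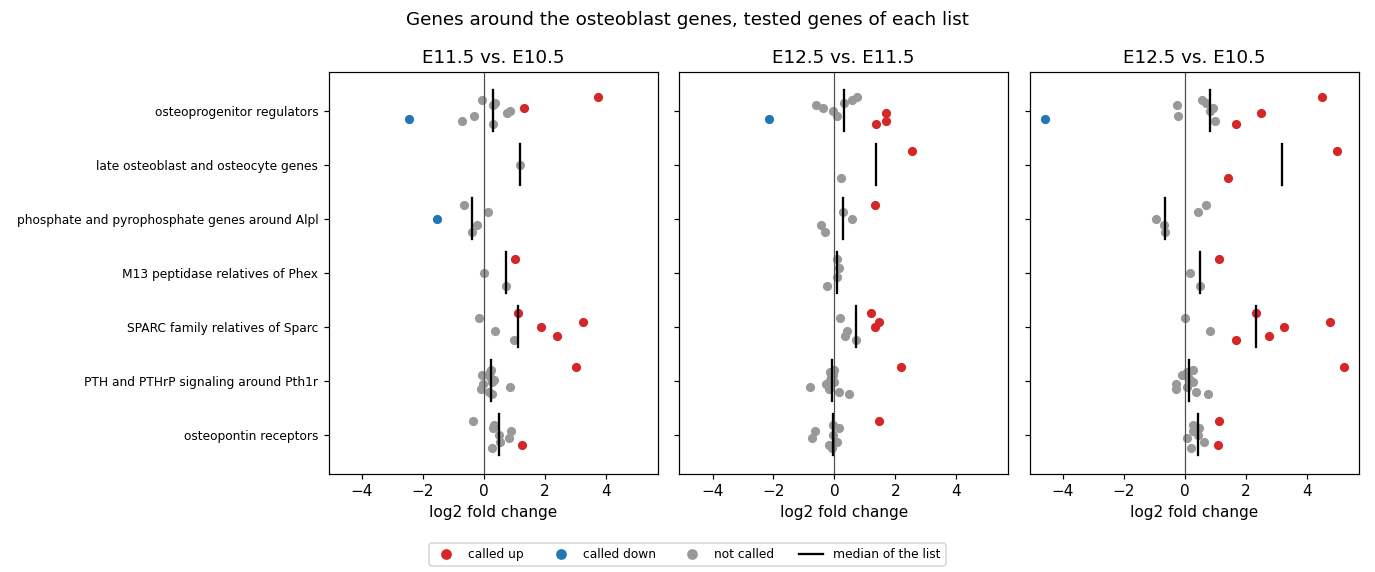
Log2 fold change (horizontal axes) of the tested genes of 7 lists around the osteoblast genes in the 3 comparisons, with a point per gene coloured by its call and a black line at the median of the list. SPARC family relatives were called up or not called, and Pthlh is the 1 called point of the parathyroid hormone list.

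Markers of other tissues were read in the same libraries. The 8 cartilage markers summed to 728 to 1145, 558 to 682 and 584 to 799 CPM at the successive stages. Col2a1 and Sox9 were among those with the most counts. Acan and Matn4 were called up in the second step and the whole span, where 4.14% and 9.97% of all genes tested were. Col2a1 and Sox5 had log2 fold changes of -0.86 and -0.70 over the whole span, below the fold-change limit (edgeR quasi-likelihood test, Benjamini-Hochberg adjusted p = 0.0253 and 0.0383). Without E10.5 replicate 3, Col2a1 was called down there. Facial mesenchyme markers, of which Prrx1 was at 343 ± 40.1, 508 ± 28.0 and 525 ± 23.5 CPM (SD, n = 3), summed to 1013 to 1744, 2303 to 2456 and 2245 to 2622 CPM. This sum was higher in each E11.5 library than in any at E10.5, a step at which Sp7 and Runx2 rose, and its part in their change was not tested. The 8 endothelial markers summed to 126 to 354, 331 to 336 and 297 to 354 CPM. The 7 epithelial markers summed to 385 to 697, 398 to 425 and 637 to 719 CPM. Krt5 was called up in the first step (log2 fold change 4.03), where 3.46% of all genes tested were. In the second step Krt5 and Krt14 were called up (log2 fold changes of 2.13 and 2.33), and the other 5 had log2 fold changes of -0.04 to 0.25. Both were also called up over the whole span (6.16 and 3.30). Krt18 was called down in the first step and over the whole span (-1.03 and -1.02, edgeR quasi-likelihood test, Benjamini-Hochberg adjusted p = 0.0213 and 0.0091). Without E10.5 replicate 3 both calls of Krt18 were lost, and Krt14 was also called up in the first step. The 6 erythroid markers summed to 243 to 565, 631 to 690 and 881 to 1172 CPM.

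For each gene the 3 genes closest to it over the 9 libraries were found by the root mean square difference of log2 CPM, each gene centred on its own mean, among 16375 genes. For Sp7 these were Gsn (0.17), Klf4 (0.28) and Krt15 (0.29). Alpl was followed most closely by Grik1 (0.18), Jag1 (0.22) and Cd44 (0.24), and Sparc by Hs3st5 (0.09), Igfbp3 (0.10) and Mmp11 (0.12). Closest to Pth1r were Col26a1 (0.06), Hspa12b (0.10) and Mmp2 (0.14). The nearest genes were farther off for the scarce members: Slitrk4, Abca6 and Pgm2l1 for Phex (0.39 to 0.41), Vwa5b1, Gm36948 and Mcrip2 for Ibsp (0.32 to 0.44), and Cdh7, Snora41 and 2610204G07Rik for Spp1 (0.30 to 0.37). These are descriptions over 9 libraries that share stages and scaling. Among the 7 themselves the nearest pair was Sparc and Pth1r (0.43), followed by Sparc and Alpl (0.48), while Sp7 and Ibsp were the farthest apart (2.74).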

How the data were processed

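RNA-seq was measured in 9 libraries, with 3 per stage (E10.5, E11.5, E12.5). Per the labels the authors mapped reads to mm10 with HISAT2 2.0.5. The authors deposited whole-number read counts per gene without normalization for 54532 genes, FPKM values and gene lengths in bases. They also deposited group means, log2 fold changes and p-values of their own DESeq2 comparisons, which were not used, nor were the FPKM values. Whether counting used strand is not given in the sources used here. Totals were 16581009 to 20836804 counts. Counts are reads without molecular identifiers, so limits of detection (3 counts) cover counting error only. Libraries are separate pools of embryos, and p-values measure the spread between pools.

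The 6 libraries of a pair of stages were fitted alone with edgeR 4.0.16 (filterByExpr, TMM, quasi-likelihood test, Benjamini-Hochberg adjustment over all genes tested), in R 4.3.3, and the difference between the steps on all 9. Standard errors were derived from the fold change and the F statistic of the test. CPM used TMM library sizes of all 9 libraries, and likeness was measured on log2 CPM (prior count 2). The fits were tested on simulated data. Coordinates are those of the deposited table, and exon overlaps came from GENCODE vM21. Python 3.11.15 was used for summaries and plots (pandas 2.3.3, matplotlib 3.10.9).

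The members and the lists were chosen with earlier results of these data known. All 7 members were named in every comparison. Of each pathway list up to 4 called genes per comparison in order of p-value were named. Of each marker list up to 3 genes with the highest mean CPM were named, and of both kinds of list those with at most 3 counts in every library. Gnas, Slc20a1, Slc20a2, Tnfsf11, C1qa, Mrc1, Ctsk, Acp5, Krt5, Krt14, Krt18, Acan, Matn4 and Sox5 were named after their values were seen. The result of 1 list gene is not reported here.

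Alternatives were DESeq2 1.42.0, its size factors, upper quartile normalization, at least 1 count, at least 10 counts in every library, all 9 libraries in 1 fit, a replicate block, each library left out, hemoglobin genes left out, the GC trend removed (lowess, span 0.3), a stricter limit of 0.01 on adjusted p-values, and no limit on the fold change. List calls without E10.5 replicate 3 were added after seeing the data.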

Additional observations from a re-analysis of the deposited data

Results flagged for a closer look

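Alpl changed differently in the consecutive 1-day steps: the log2 fold change of the second step exceeded that of the first step by 2.01 (SE 0.32, edgeR quasi-likelihood test of the difference, Benjamini-Hochberg adjusted p = 0.0119). The levels behind it were 19.1 ± 2.70, 14.6 ± 1.02 and 45.2 ± 9.23 CPM at the successive stages (SD, n = 3), and the direction was kept in all 9 fits that left out a library, with differences of 1.84 to 2.11. The call was lost in 3 of these fits, those without an E11.5 library (edgeR quasi-likelihood test, Benjamini-Hochberg adjusted p = 0.0935, 0.0576 and 0.124 without replicate 1, 2 and 3), and also with a limit of 0.01 on the adjusted p.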

How the results depend on the processing

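Over the alternatives that refitted single genes, which leave out the stricter limit on adjusted p-values and the lack of a fold-change limit, 362 of the values of single genes kept their direction and their side of the limits, 11 lost a call, 13 gained one and 5 changed sign. The changes of sign were in values that were not called: Phex in the whole span without E12.5 replicate 2 (-0.09), Spp1 in the whole span without E10.5 replicate 3 (0.27), and Sp7 in the difference between steps without E10.5 replicate 3 (0.05), E11.5 replicate 1 (0.14) and E11.5 replicate 3 (0.02). With a library left out these values ranged from -0.09 to 0.65, from -0.98 to 0.27 and from -0.50 to 0.14. The number of the 7 genes called in the first step was 3, and fell to 1 with the limit on adjusted p-values at 0.01 (Phex and Ibsp were lost) and to between 1 and 3 with a library left out. In the difference between steps it was 1, with 2 when genes with at least 1 count were kept, 0 with that limit at 0.01 (Alpl was lost), and 0 to 2 with a library left out. Counts in the other comparisons stayed within 1.5 times, at 2 to 3 in the second step and 5 in the whole span with a library left out.

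Deviations from the stage means had correlations of -0.151 to 0.22 between libraries with the same replicate number, and of -0.219 to 0.223 between those with different numbers. Between E10.5 and E12.5 these were 0.0701 to 0.22 for the same number and -0.219 to 0.153 for different numbers. With 3 libraries per stage, such values cannot settle whether the numbers pair the libraries. With a replicate block the counts were 3, 3 and 5, and Phex was then called down in the second step (log2 fold change -1.14, edgeR quasi-likelihood test, Benjamini-Hochberg adjusted p = 0.0281). Pth1r in the first step was called in 5 alternatives, among them DESeq2 (1.03, adjusted p = 0.00656), and Sparc in the second step with upper quartile normalization (1.01). Depth limits Ibsp and Spp1, with at most 34 and 25 counts in a library, and differences at those levels were detectable only when large. The cause of the changed calls was not tested.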
